A study of Mus musculus with 12 samples.

Results

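A set of 10 genes tied to fat storage were followed in the livers of obese mice after sleeve gastrectomy or food restriction: Pparg, Cd36, Fabp4, Mogat1, Cidea, Cidec, Plin4, Cfd, Adipoq and Car3. They were chosen by name, as genes of PPAR gamma steatosis and of the fat cell, with the fall of Cfd after both treatments already seen, so Cfd's values against Sham-Ad lib are a description of that choice. The 10 genes are part of 46078 in the count table, and 9 of them passed the filter on low counts that left 13054 genes for testing. Adipoq did not pass.

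Poly(A) RNA from the liver was sequenced in 12 male C57BL/6 mice (C57BL/6J in the study's methods) with diet-induced obesity (DIO), aged 21 weeks and fed a high fat diet. Of these, 4 had vertical sleeve gastrectomy (VSG), in which most of the stomach is removed, and were returned to the high fat diet. A further 4 had sham surgery and then restricted food, which held their weight at that of the VSG mice (Sham-WM, named a calorie restriction group in the labels). The remaining 4 had sham surgery and free access to the high fat diet (Sham-Ad lib). Mice were culled at day 16 after surgery, following 5 hours without food, so all 3 groups share a history of diet-induced obesity, anaesthesia and laparotomy. Sham-WM and VSG were matched for weight, not for food eaten or its timing. Libraries are named here by animal number: 3F, 4F, 6F and 10F are Sham-Ad lib, 2F, 9F, 15F and 16F are Sham-WM, and 1F, 8F, 11F and 18F are VSG. The library totals lay between 15122520 and 19384076 counts on genes. Levels are given as CPM (counts divided by the library's total and put on a common scale) after TMM normalization, an adjustment for differences in library composition, as mean ± SD with n = 4 mice per group. Because whole liver was used, fewer cells of a type and less RNA per cell cannot be told apart.

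PPAR gamma is a nuclear receptor that pairs with RXR on DNA and turns on genes for taking up fatty acids and storing them as triglyceride. It is the main regulator of fat cell formation, and in the lean liver it is present at low levels. In the fatty liver of obese mice it is known to be raised and to drive genes usually seen in fat, among them Cidec (also called Fsp27), Mogat1, Cd36 and Plin4, which act in the uptake of fatty acids, the building of triglyceride and the coating of lipid droplets.

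The label "adipocyte-like" was checked against markers of fat cells. Adipoq, which encodes adiponectin, the most abundant hormone of fat cells, had 1 read in each of 3 libraries (3F, 15F and 11F) and 0 in the other 9, so its level is at or under the floor of 3 counts in every mouse. Across the 12 libraries, Lep (leptin) had 0 reads, Plin1 (the main droplet coat of fat cells) 2, Retn (resistin) 1 and Ucp1 (uncoupling in brown fat) 2. Adrb3, the beta-3 adrenergic receptor, did not follow these genes: it had 45 to 188 reads per library.

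Other genes used in fat were low but present. Lipe (hormone-sensitive lipase) had 3879 reads in all, Slc2a4 (the insulin-responsive glucose transporter) 376, Trarg1 (its trafficking partner) 98, Aoc3 51, Sncg 22, Aqp7 (the glycerol channel) 22 and Acvr1c 20. Of the 12 markers, 4 passed the filter (Lipe, Adrb3, Slc2a4 and Trarg1) and 1 was at 0 in every library. The data therefore go against the label for Lep, Plin1, Retn, Ucp1 and Adipoq, but not for Adrb3, which was also set as a defining marker. An antisense gene lies over Adrb3, and the strand setting of the counting is not given in the sources used here. The reads of Adrb3 may therefore not all be its own. Members that fat cells use too, such as Cfd, Cidec and Plin4, were present. The genes are treated below by their names, as a set linked to fat storage.

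**Figure D1:**
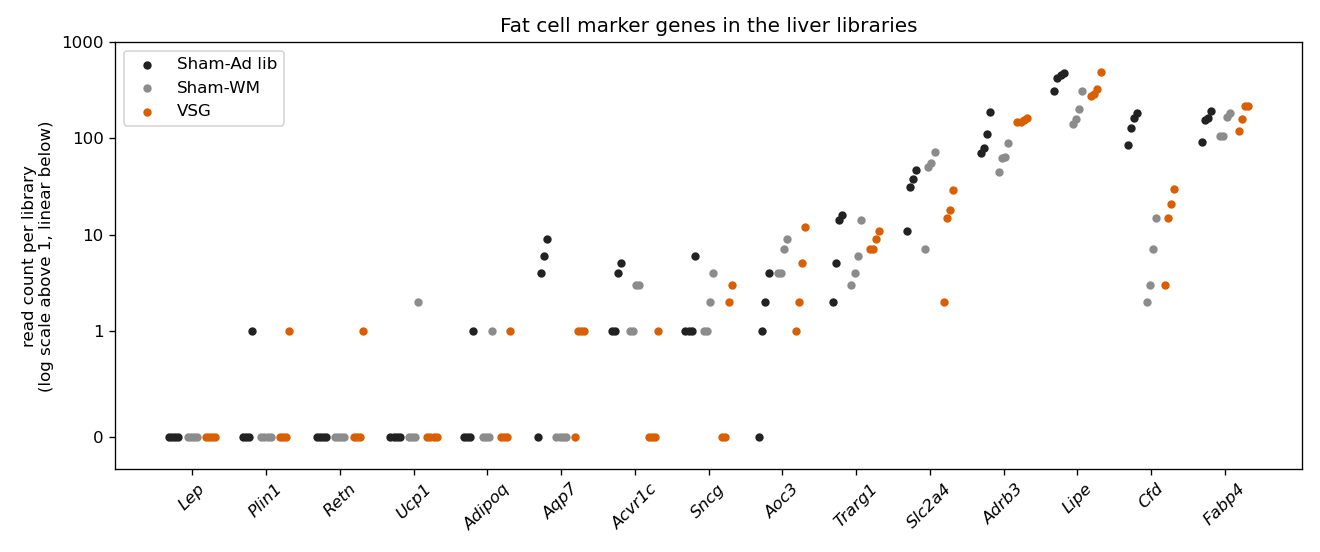
Read counts of fat cell marker genes in each of the 12 liver libraries, on a scale that is logarithmic above 1 and linear below, with Sham-Ad lib in black, Sham-WM in grey and VSG in orange. Lep, Plin1, Retn, Ucp1 and Adipoq never exceeded 2 reads, whereas Fabp4, Cfd, Lipe and Adrb3 reached over 100 reads in at least 1 library.

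The stretch of DNA just before a gene's start is where many regulators bind, and it is shown for members whose levels moved or that encode the regulator. RefSeq starts on GRCm38.p6 were found for 7 members, with 10 starts in all, of which 3 belong to Pparg and 2 to Cidec. Fabp4, Cidea and Car3 had no entry. The 250 bases before each start were searched on both strands for the nuclear receptor site AGGTCA, for the full repeat that PPAR and RXR bind (AGGTCA, 1 base of any kind, then AGGTCA again), for the C/EBP core TTNNGCAA and for the TATA box TATAAA. Matches stand in capitals below, each sequence is written 5′ to 3′ on the strand of its gene, and its last base is the one before the start.
Pparg internal start, chr6:115421816-115422065, plus strand: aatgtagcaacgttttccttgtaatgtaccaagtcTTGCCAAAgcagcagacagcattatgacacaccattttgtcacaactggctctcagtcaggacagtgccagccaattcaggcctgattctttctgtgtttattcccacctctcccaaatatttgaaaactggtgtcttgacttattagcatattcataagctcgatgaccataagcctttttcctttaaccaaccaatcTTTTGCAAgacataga
Cidec inner start, chr6:113434765-113435014, minus strand: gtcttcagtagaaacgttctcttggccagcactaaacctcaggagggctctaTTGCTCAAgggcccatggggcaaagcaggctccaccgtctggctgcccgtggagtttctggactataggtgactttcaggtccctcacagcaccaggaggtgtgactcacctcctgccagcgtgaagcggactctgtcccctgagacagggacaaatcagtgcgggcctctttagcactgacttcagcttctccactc
Cfd, chr10:79890603-79890852, plus strand: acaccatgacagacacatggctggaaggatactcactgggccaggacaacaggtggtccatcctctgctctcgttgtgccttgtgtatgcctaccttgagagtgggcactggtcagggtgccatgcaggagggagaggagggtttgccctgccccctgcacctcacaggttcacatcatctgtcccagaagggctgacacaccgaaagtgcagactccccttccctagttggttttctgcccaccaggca
Plin4, chr17:56109783-56110032, minus strand: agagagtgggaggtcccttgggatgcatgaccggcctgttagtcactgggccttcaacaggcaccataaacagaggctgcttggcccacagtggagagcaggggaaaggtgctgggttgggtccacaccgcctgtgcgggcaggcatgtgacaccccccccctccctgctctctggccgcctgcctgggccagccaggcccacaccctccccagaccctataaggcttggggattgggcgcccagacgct

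The internal start of Pparg, from which the fat cell form PPAR gamma 2 is made, carried 2 C/EBP cores, which begin 215 and 16 bases before the start. The inner start of Cidec carried 1 C/EBP core, 198 bases before it. C/EBP cores were present in 9.56% of the 32851 windows of the same length in RefSeq. The site AGGTCA stood 28 and 9 bases before the other Pparg starts and 228 bases before the Cd36 start, and was present in 14% of all windows. A TATA box stood 29 bases before the Pparg start that has the site at 9 bases, and 12.4% of all windows held one. The full repeat was in none of the 10 member windows and in 0.0335% of all windows. A match is a string of letters, and its absence says only that these letters are not in this window. Counts were made per gene, so the products of the 3 Pparg starts were not separated.

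The levels of the 10 genes spanned from a trace to one of the highest in the liver. With CPM divided by the length of all exons in kilobases (CPM per kb), the Sham-Ad lib means were 1245 ± 257 for Car3, 37.5 ± 18.7 for Cd36, 8.43 ± 2.3 for Cfd, 8.02 ± 6.55 for Cidec, 6.11 ± 1.02 for Pparg, 3.69 ± 2.12 for Plin4, 1.9 ± 0.527 for Fabp4, 1.23 ± 0.588 for Mogat1 and 0.799 ± 0.481 for Cidea. Neighbours in this order differed by less than the larger of their SDs for Cfd and Cidec, Cidec and Pparg, Plin4 and Fabp4, and Mogat1 and Cidea, while Car3 and Cd36 stood above the rest by more than their spread. In Sham-WM and VSG the order was not the same, since Cfd per kb was 0.376 ± 0.323 and 1.17 ± 0.812. The annotated exons of Fabp4 cover the whole gene, which makes its level per kb low.

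**Figure D2:**
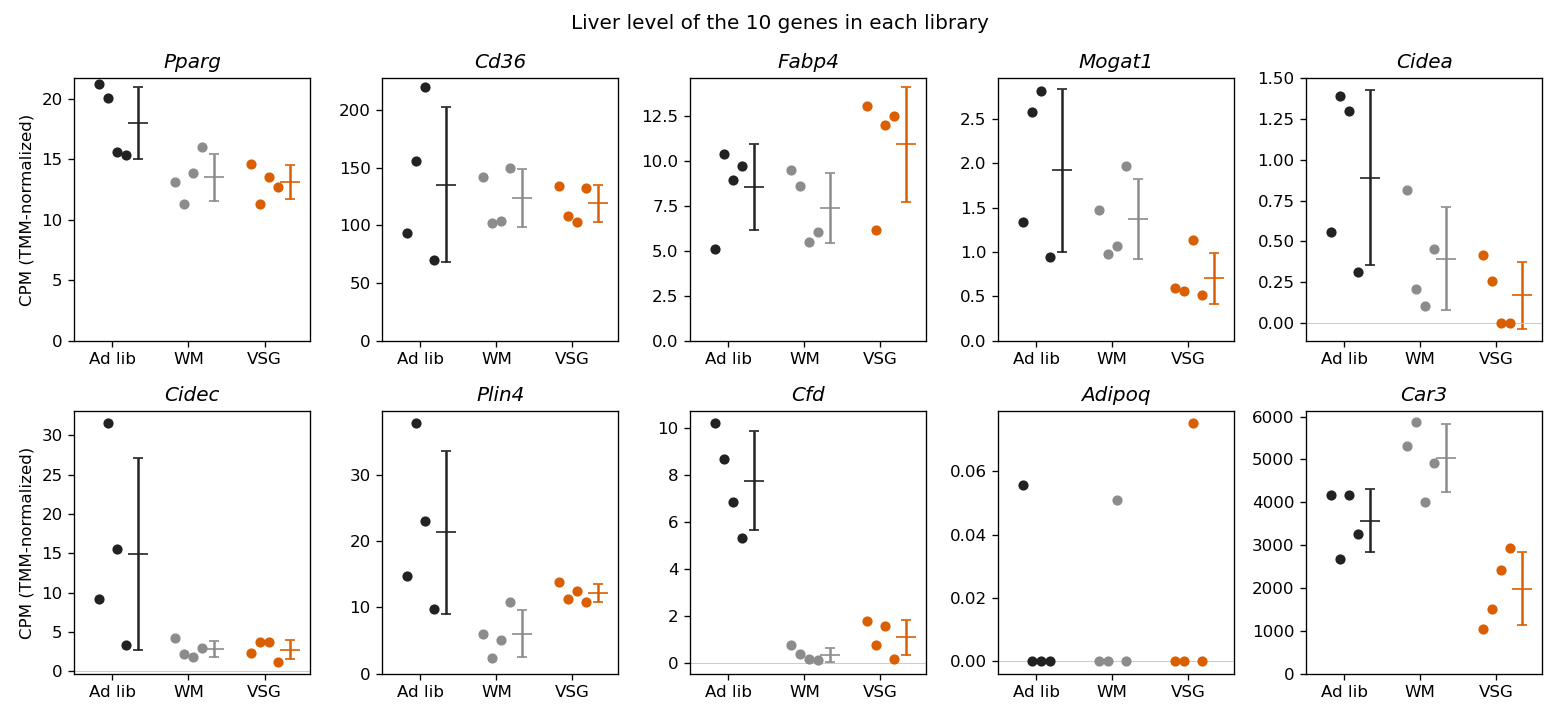
CPM of each of the 10 genes (vertical axes, each starting near 0) in Sham-Ad lib (black), Sham-WM (grey) and VSG (orange) livers, with 1 point per mouse and the mean ± SD of 4 mice beside it (no mean is drawn for Adipoq). Cfd in all 8 treated mice lay below the 4 Sham-Ad lib mice, and Car3 in the 4 VSG mice lay below the 4 Sham-WM mice.

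Pparg (chr6:115360951-115490399, plus strand, mm10), the receptor itself, was read at 21.2, 20.1, 15.6 and 15.4 CPM in Sham-Ad lib mice 3F, 4F, 6F and 10F. The Sham-WM mice 2F, 9F, 15F and 16F had 13.1, 11.3, 13.9 and 16 CPM, and the VSG mice 1F, 8F, 11F and 18F had 14.6, 11.3, 13.5 and 12.7 CPM. All 4 VSG mice were below all 4 Sham-Ad lib mice, while 1 Sham-WM mouse, 16F, reached into the Sham-Ad lib range. The group mean was 18 ± 3.01 CPM for Sham-Ad lib, 13.5 ± 1.95 CPM for Sham-WM and 13.1 ± 1.39 CPM for VSG. Against Sham-Ad lib the log2 fold change was -0.47 (95% interval -0.78 to -0.16) in VSG and -0.41 (-0.73 to -0.1) in Sham-WM, and neither passed the adjusted threshold of 0.05 in edgeR's quasi-likelihood test. Between VSG and Sham-WM it was -0.05 (interval -0.37 to 0.26, edgeR adjusted p = 0.809). An antisense gene, Gm44079, overlaps Pparg, and the strand setting of the counting is not given in the sources used here, so reads of the pair cannot be told apart.

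Cd36 (chr5:17781690-17888801, minus strand) encodes a fatty acid transporter at the cell surface. Its levels were 93.58, 155.6, 219.8 and 70.1 CPM in Sham-Ad lib, 142.1, 101.8, 103.9 and 150.1 CPM in Sham-WM and 133.8, 107.7, 102.6 and 132.7 CPM in VSG, in the order of mice given above. Both treated groups lay wholly inside the range of the Sham-Ad lib mice, in which the highest mouse was 6F and the lowest 10F. The log2 fold change was -0.18 (-0.79 to 0.43) for VSG and -0.12 (-0.72 to 0.49) for Sham-WM against Sham-Ad lib, and it was -0.06 (-0.67 to 0.55, edgeR adjusted p = 0.888) for VSG against Sham-WM. These signs depended on single mice: without 6F, the differences from Sham-Ad lib were 0.16 for VSG and 0.23 for Sham-WM.

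Fabp4 (chr3:10204088-10208576, minus strand) encodes the carrier of fatty acids in the cytoplasm of fat cells, which macrophages and endothelial cells also make. It was read at 5.07, 10.3, 8.92 and 9.72 CPM in Sham-Ad lib, at 9.47, 8.6, 5.45 and 6.02 CPM in Sham-WM and at 13, 6.12, 12 and 12.4 CPM in VSG. Of the VSG mice, 3 were above all other mice and 1, 8F, was among the low ones. The mean was 10.9 ± 3.21 in VSG, 7.38 ± 1.95 in Sham-WM and 8.52 ± 2.37 in Sham-Ad lib. VSG differed from Sham-WM by 0.56 on the log2 scale (-0.03 to 1.15, edgeR adjusted p = 0.145), and without 8F by 0.74 (adjusted p = 0.0438). Fabp4 was the 1 tested member with a log2 fold change above 0 for VSG against Sham-Ad lib, 0.35 (-0.24 to 0.94).

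Mogat1 (chr1:78510991-78538173, plus strand) encodes an enzyme that joins a fatty acid to monoacylglycerol, a step in triglyceride synthesis. It was low throughout, at 1.34, 2.57, 2.81 and 0.94 CPM in Sham-Ad lib, 1.48, 0.972, 1.07 and 1.97 CPM in Sham-WM and 0.597, 0.561, 1.13 and 0.512 CPM in VSG. In VSG, 3 of 4 mice were below every mouse of the other groups and the fourth, 11F, was among them. The log2 fold change was -1.48 (-2.36 to -0.6) for VSG and -0.49 (-1.31 to 0.33) for Sham-WM against Sham-Ad lib. Between VSG and Sham-WM it was -0.99 (-1.88 to -0.1, edgeR adjusted p = 0.0921), which did not pass. The gene overlaps BC035947 on the other strand, with the same limit as for Pparg.

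Cidea and Cidec encode droplet proteins of the CIDE family, which let small lipid droplets merge into large ones. Cidea gave 10, 26, 24 and 5 reads in the Sham-Ad lib mice, 16, 4, 2 and 8 in Sham-WM and 7, 5, 0 and 0 in VSG. The 2 mice with 0 reads were 11F and 18F, and a count of 0 allows up to 3 reads, so at this depth the gene was near the limit of what could be measured. Only 3F, 4F, 6F and 2F had 10 reads or more, so Cidea passed the filter mainly through the Sham-Ad lib mice, in which it was high. Its values against Sham-Ad lib are therefore a description, not a test. Its log2 fold change was -2.31 (-4.09 to -0.53) for VSG and -1.18 (-2.74 to 0.38) for Sham-WM against Sham-Ad lib. It was -1.13 (-3.04 to 0.79, edgeR adjusted p = 0.363) for VSG against Sham-WM.

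Cidec (chr6:113424634-113435760, minus strand) was read at 9.2, 31.5, 15.5 and 3.32 CPM in Sham-Ad lib mice 3F, 4F, 6F and 10F. The Sham-WM mice had 4.23, 2.2, 1.89 and 3.04 CPM and the VSG mice 2.33, 3.72, 3.69 and 1.25 CPM. Of the Sham-Ad lib mice, 3 exceeded all 8 treated mice, whereas 10F was lower than 1 Sham-WM and 2 VSG mice. The means were 14.9 ± 12.2, 2.84 ± 1.05 and 2.75 ± 1.19 CPM in the order Sham-Ad lib, Sham-WM, VSG. Cidec was lower than in Sham-Ad lib by nearly the same amount after either treatment, with log2 fold changes of -2.44 (-3.64 to -1.24) for VSG and -2.39 (-3.58 to -1.21) for Sham-WM, of which only the latter passed the threshold. VSG and Sham-WM differed by -0.05 (-1.28 to 1.18, edgeR adjusted p = 0.956), an interval that leaves room for a difference of more than 1 log2 unit either way. The call in Sham-WM was lost without 4F (-1.72), 9F (-2.29), 15F (-2.24) or 16F (-2.42), and VSG passed without 4F (-1.77) or 18F (-2.2). For VSG against Sham-Ad lib, the fits without 4F and 18F called 903 and 1089 genes in all, where the main fit called 98.

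Plin4 (chr17:56100591-56109803, minus strand) encodes perilipin 4, which coats new lipid droplets. It was read at 14.8, 37.8, 23 and 9.72 CPM in Sham-Ad lib, at 5.96, 2.35, 4.99 and 10.9 CPM in Sham-WM and at 13.8, 11.3, 12.4 and 10.7 CPM in VSG. The VSG mice lay close together, between the low Sham-WM mice and the upper Sham-Ad lib mice. The log2 fold change against Sham-Ad lib was -1.83 (-2.74 to -0.91) for Sham-WM, which passed, and -0.82 (-1.7 to 0.06) for VSG, which did not. VSG was above Sham-WM by 1 on the log2 scale (0.09 to 1.92), with an edgeR adjusted p of 0.0939, and by 1.44 without Sham-WM mouse 16F (adjusted p = 0.0356). The call in Sham-WM was lost without 4F (-1.4), 6F (-1.79), 2F (-1.82) or 15F (-1.74). The gene overlaps Hdgfl2 on the other strand.

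Cfd (chr10:79890853-79892655, plus strand) encodes complement factor D, or adipsin, a serine protease that fat cells secrete and that starts the alternative pathway of complement by cutting factor B. It was read at 10.2, 8.69, 6.87 and 5.33 CPM in Sham-Ad lib, 0.764, 0.358, 0.153 and 0.112 CPM in Sham-WM and 1.79, 0.765, 1.58 and 0.171 CPM in VSG, which are 85 to 183, 2 to 15 and 3 to 30 reads. The highest treated mouse, 1F, was below the lowest Sham-Ad lib mouse, 10F. As a description of the choice, the log2 fold change against Sham-Ad lib was -2.87 (SE 0.52) for VSG and -4.44 (SE 0.58) for Sham-WM. The comparison that played no part in the choice was VSG against Sham-WM, which was 1.57 (0.21 to 2.93, edgeR adjusted p = 0.0804) and did not pass. DESeq2 gave 1.6 with an adjusted p of 0.0267. That difference rests on few reads, since 2 Sham-WM mice and 1 VSG mouse had 3 reads or fewer. Without 2F it was 2.29 (edgeR adjusted p = 0.0342) and without 18F 1.93 (adjusted p = 0.0164), while without 1F it was 1.18.

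Car3 (chr3:14863512-14872523, plus strand) encodes carbonic anhydrase 3, a weak carbonic anhydrase abundant in the cytoplasm of fat cells, of muscle and of rodent liver. It was among the most abundant liver RNAs, above 99.8% of the genes tested by mean level. Sham-Ad lib mice had 4165, 2674, 4174 and 3256 CPM, Sham-WM mice 5319, 5878, 4003 and 4916 CPM and VSG mice 1048, 1515, 2428 and 2922 CPM. Every VSG mouse was below every Sham-WM mouse, and 1 VSG mouse, 18F, was above 1 Sham-Ad lib mouse, 4F. Car3 was lower in VSG than in Sham-WM by 1.35 log2 units (log2 fold change -1.35, -1.96 to -0.74, edgeR adjusted p = 0.00531), with means of 1978 ± 851 against 5029 ± 790 CPM. It passed without any 1 of the 12 libraries, over a range of -1.6 to -1.14, but not with 2 RUVs factors (factors of unwanted variation estimated from differences between replicates), where it was -0.69 (adjusted p = 0.127). Against Sham-Ad lib, VSG was -0.85 (-1.45 to -0.25) and Sham-WM 0.5 (-0.1 to 1.1), and neither passed. Without 18F, VSG against Sham-Ad lib was -1.1 and passed (edgeR adjusted p = 0.0354). That fit called 1089 genes in all, where the main fit called 98.

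**Figure D3:**
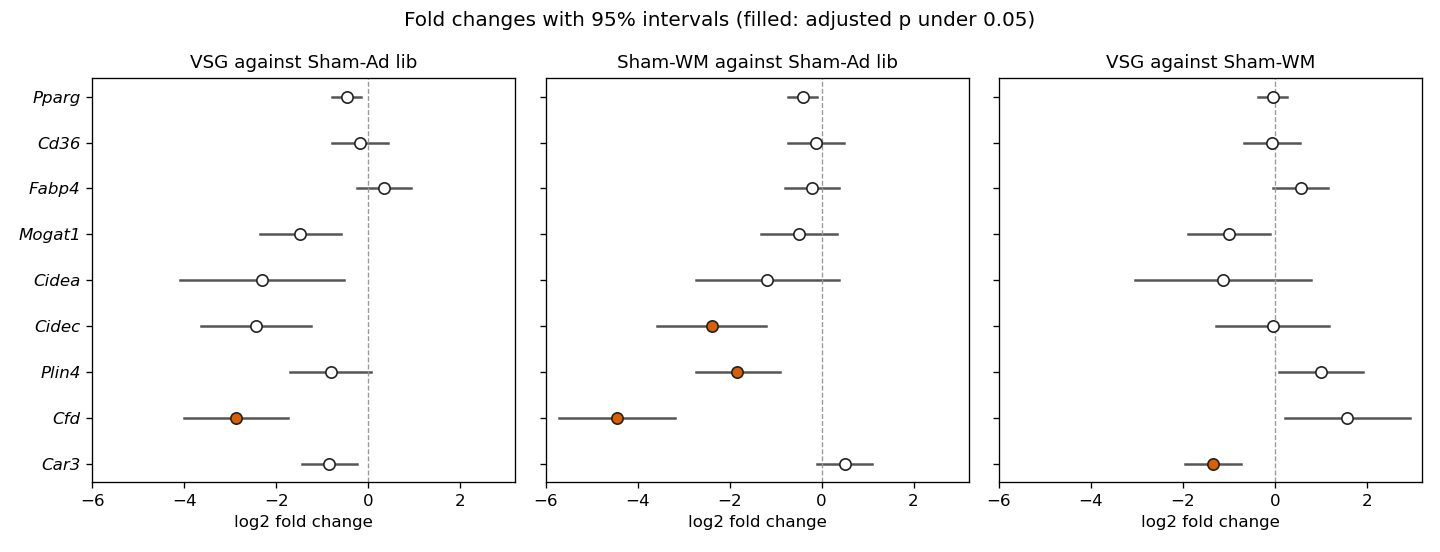
Log2 fold change of the 9 tested genes in each of the 3 comparisons, with 95% intervals from edgeR's fit of all 12 libraries. Filled points passed an adjusted p of 0.05: Cfd against Sham-Ad lib in VSG and Sham-WM, Cidec and Plin4 in Sham-WM, and Car3 between VSG and Sham-WM. The Cfd points against Sham-Ad lib are a description of how the genes were chosen, not a test.

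Counted together, 1 of the 9 tested members (Cfd) was lower in VSG than in Sham-Ad lib at the threshold and none was higher, where 0.283% of all tested genes were lower and 0.467% higher. In Sham-WM, 3 of 9 (Cfd, Cidec and Plin4) were lower and none was higher, beside 3.45% and 3.53% of all genes. The choice used these comparisons, so nothing is read from these counts. An unadjusted p under 0.05 in edgeR was reached by 6 of 9 in VSG and 4 of 9 in Sham-WM, beside 24.1% and 21.6% of all genes in either direction. The 6 include Cidea, which passed the filter mainly through the Sham-Ad lib mice. In Sham-WM, DESeq2 called 3 of 9, beside 11.1% of all genes. Groups that did not overlap were found for 2 members in VSG (Pparg and Cfd) and 1 in Sham-WM (Cfd), beside 9.18% and 17.6% of all genes in either direction. The median log2 fold change of the 9 was -0.85 in VSG and -0.49 in Sham-WM, against medians of 0.03 and 0 over all genes tested. These comparisons share the Sham-Ad lib mice.

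The number of members that passed in VSG against Sham-Ad lib rested on the model. DESeq2 called 5 (Pparg, Cfd, Cidec, Mogat1 and Car3), with 9.21% of all genes called and 3.75% called lower, and edgeR with 2 RUVr factors (estimated from the residuals of the fit) called 6 (these and Cidea), with 10.1% of all genes called lower. With only the 8 libraries of these groups in the fit, 8 members were tested and none was called, where 0 of all 12753 tested genes were called. Cfd's values here are a description of the choice, so its passes in any of these fits are no support. Cidea passed the filter mainly through the Sham-Ad lib mice, so its call with RUVr factors is no support either. Of the 12 fits that left out 1 library, Cfd passed in 4: those without 4F, 8F, 11F or 18F. In that order, these fits called 903, 227, 69 and 1089 genes in all. The fits in which Cfd did not pass called 0 to 3 genes in all. Cfd's log2 fold change ranged from -3.26 to -2.51 over the 12 fits.

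Between VSG and Sham-WM, which the choice did not use, 1 of 9 members was lower (Car3) and none was higher, where 11.9% of all tested genes were lower and 15.0% higher. DESeq2 called 2 members, beside 31.3% of all genes, and an unadjusted p under 0.05 in edgeR was reached by 4, beside 40.4%. Only the Car3 groups did not overlap, beside 26.2% of all genes. A share of 1 in 9 is near or below this background. Adipoq, left out of the fit, had the same 1 read in VSG and in Sham-WM. An exact permutation test cannot go below p = 0.429 with these values, so it shows nothing about a difference.

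Within groups, several members had their high and low levels in the same mice. In Sham-Ad lib, 10F was the lowest mouse for 7 of the 9 tested members (Pparg, Cfd, Cidea, Cidec, Mogat1, Cd36 and Plin4), whereas it was the lowest for 29% of all tested genes. Mouse 4F or 6F was the highest for Cidea, Cidec, Plin4, Mogat1 and Cd36, where 4F was the highest for 30.9% of all tested genes and 6F for 22.2%. In Sham-WM, 2F and 16F were the upper pair for the same 5 genes. Over all tested genes, 2F was the highest for 25.6% and 16F for 25.5%. VSG mouse 1F was the highest for 6 members, beside 21.1% of all tested genes, and 18F the lowest for 4, beside 23.1%. The mice of a group share no order, and with 4 mice no test was made of this. The total of 10F, 16859076 counts, was the lowest of its group and below every Sham-WM library, though inside the range of the VSG libraries, and its part in this was not tested.

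Spread between mice was itself uneven. The SD of log2 CPM of Cidec in Sham-Ad lib was 1.35, where the median for 1630 genes of like level was 0.231, and 99.4% of those genes had a smaller SD. Plin4 had an SD of 0.837 in Sham-Ad lib and 0.887 in Sham-WM but 0.159 in VSG, against medians of 0.168, 0.174 and 0.248. Cd36 followed, with 0.736 in Sham-Ad lib and 0.199 in VSG. For Cfd it was the treated groups that were wide, with 0.891 in Sham-WM and 1.26 in VSG against 0.403 in Sham-Ad lib, at the low read counts given above.

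**Figure D4:**
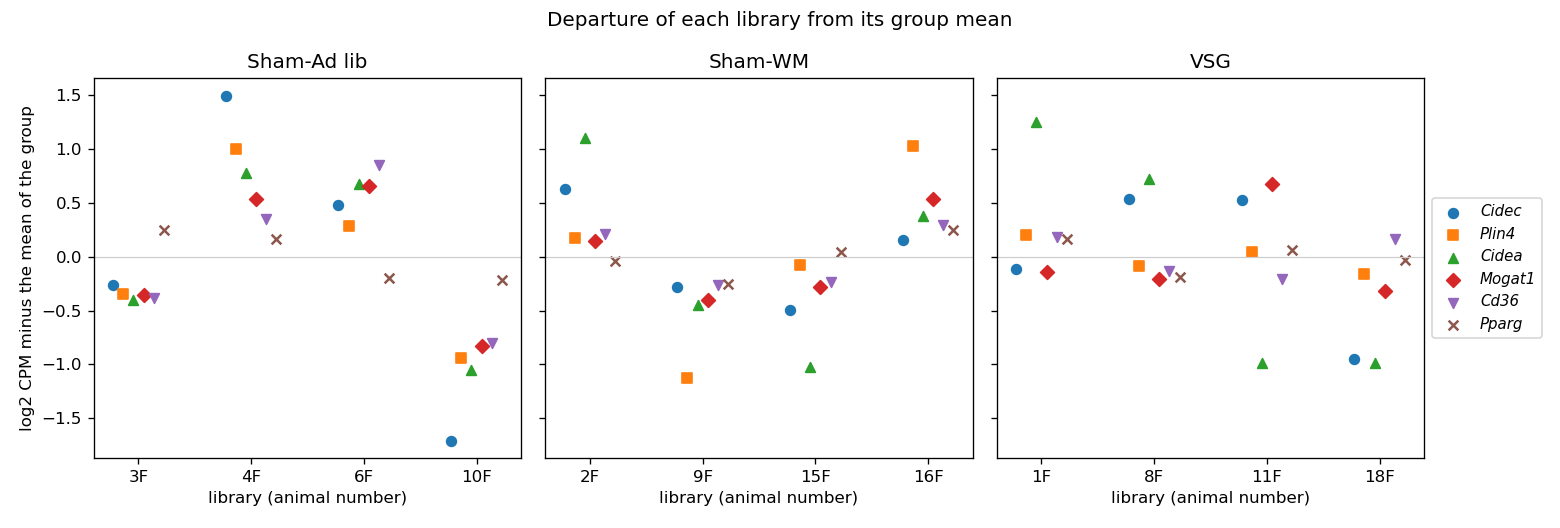
Departure of each mouse from its group's mean log2 CPM for Cidec, Plin4, Cidea, Mogat1, Cd36 and Pparg (vertical axis, log2 units), with 1 panel per group and 1 column of points per mouse. In Sham-Ad lib, mouse 10F is the lowest for all 6 genes, and in Sham-WM mice 2F and 16F are the upper pair for all but Pparg.

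The genes whose pattern over the 12 libraries came closest to that of a member were found by the root mean square (RMS) difference of centred log2 CPM. For Pparg these were Slc35e2 (0.184), Zfand2a (0.186) and Phldb2 (0.188), where the SD of Pparg itself was 0.27. For Plin4 they were Gal3st1 (0.462), Adora1 (0.498) and Gpr12 (0.573), with an SD of 0.971. For Cidec they were Rufy4 (0.754), Mcm8 (0.787) and Clstn3 (0.81), with an SD of 1.25, and for Cfd Osbpl3 (1.24), 1700023H06Rik (1.26) and Cyp4a12b (1.29), with an SD of 1.96. For Car3 they were Sucnr1 (0.229), Prex2 (0.238) and Retsat (0.24), beside an SD of 0.712.

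Of the tested fat cell markers other than the members, Lipe and Adrb3 changed. Lipe was lower in Sham-WM than in Sham-Ad lib (10.6 ± 3.78 against 23.8 ± 4.74 CPM, log2 fold change -1.16, edgeR adjusted p = 0.012) and higher in VSG than in Sham-WM (0.96, adjusted p = 0.0118). Adrb3 was higher in VSG than in Sham-WM (9.4 ± 1.8 against 3.38 ± 0.849 CPM, log2 fold change 1.47, adjusted p = 0.00611), with an antisense gene, Gm45470, over it. Slc2a4 and Trarg1 did not pass in any comparison. The summed CPM of the 12 markers was 26.1 to 41.9 in Sham-Ad lib, 11.5 to 24.7 in Sham-WM and 26.1 to 38.8 in VSG. The sum was low in Sham-WM, in which Cfd, Cidec and Plin4 were called lower. In VSG, in which Cfd was also called lower, it lay within the Sham-Ad lib range. Most of the sum was Lipe and Adrb3, with means of 23.8 and 6.51 CPM in Sham-Ad lib. The part of this marker sum in the results of the members was not tested. Of the defining markers, Lep, Plin1, Retn and Ucp1 were at or near 0 in all groups, and Adrb3 was not.

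Genes that work with PPAR gamma or respond to PPARs were counted in lists written with earlier results of these data known. Of 17 tested partners and co-regulators, 2 rose and 2 fell in VSG relative to Sham-WM, shares near or below the 15.0% and 11.9% of all tested genes, which is also the background for the lists that follow. Cebpd, a C/EBP factor that acts early in fat cell formation, was higher (1.64, edgeR adjusted p = 0.0125), as was Ppargc1b, a coactivator (1.08). Ppard, which encodes PPAR delta, was lower (-1.09). Relative to Sham-Ad lib, Sham-WM livers had more Ppard (14.9 ± 4.16 against 6.76 ± 1.07 CPM, 1.14) and less Ppargc1b (-1.33), while no partner passed in VSG (2 by unadjusted p under 0.05 and 2 by DESeq2, beside 24.1% and 9.21% of all genes). The median of the list was -0.14 between VSG and Sham-WM, against 0.03 over all genes.

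Of 22 tested PPAR-responsive genes, 7 fell and 2 rose in VSG relative to Sham-WM, beside 11.9% and 15.0% of all genes. Cyp4a14, a fatty acid hydroxylase, was at 118 ± 96.7 CPM in VSG and 884 ± 274 CPM in Sham-WM (log2 fold change -2.91, edgeR adjusted p = 0.00972). Pdk4, which restrains the entry of glucose carbon into the citric acid cycle, was at 2.29 ± 0.566 against 11.3 ± 3.03 CPM (-2.3, adjusted p = 0.000148). Ucp2, a mitochondrial carrier, was higher (1.58). In Sham-WM relative to Sham-Ad lib, Pdk4 rose (1.65) and Cpt1a, the gate for fatty acids into mitochondria, fell (-0.75). In VSG relative to Sham-Ad lib none passed in edgeR, while 14 had an unadjusted p under 0.05 and DESeq2 called 10, beside 24.1% and 9.21% of all genes. The median there was -0.56, with 2 of 22 estimates above 0, against 53.2% of all genes.

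Lipid droplet genes other than Cidea, Cidec and Plin4 moved in both directions. Fitm2, which helps droplets to form, was the 1 of 13 that passed in VSG relative to Sham-Ad lib (45.3 ± 4.08 against 77.6 ± 15.5 CPM, -0.77, edgeR adjusted p = 0.0435). In that comparison 0.283% of all tested genes were lower. Fitm2 was also lower in Sham-WM (-0.67, adjusted p = 0.0124). Pnpla3, a droplet lipase-like protein, was at 8.8 ± 4.61 CPM in Sham-WM but 0.41 ± 0.318 in Sham-Ad lib and 0.314 ± 0.126 in VSG. Pnpla2, the lipase that starts triglyceride breakdown, took the opposite course, at 44.4 ± 8.33, 92.9 ± 1.46 and 85.1 ± 11.4 CPM in the same order. Both passed in Sham-WM against Sham-Ad lib (4.37 and -1.07) and in VSG against Sham-WM (-4.78 and 0.94). Plin5 fell in VSG relative to Sham-WM (-0.78). In all, 2 rose and 2 fell in that comparison. In Sham-WM relative to Sham-Ad lib, 2 rose and 3 fell, beside 3.53% and 3.45% of all tested genes.

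The steps on either side of the droplet were counted next. Of 11 tested genes of triglyceride synthesis, 2 fell in VSG relative to Sham-WM: Gpam, which adds the initial fatty acid to glycerol phosphate (74.4 ± 37.7 against 285 ± 61.1 CPM, -1.93, edgeR adjusted p = 0.00235), and Agpat2 (-0.73), which had risen in Sham-WM relative to Sham-Ad lib (0.83). Of 11 genes of fatty acid and lipoprotein uptake other than Cd36, 3 rose in VSG relative to Sham-WM, among them Fabp7 (1.39) and the transporter Slc27a1 (1.01). Slc27a1 was lower in Sham-WM than in Sham-Ad lib (-0.93).

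Genes around the secreted members were measured too. Of 5 genes of adiponectin signalling, Adipor2, a receptor, was lower in VSG than in Sham-WM (-0.93) and than in Sham-Ad lib (-0.65), Cdh13, a binding protein, was lower than in Sham-WM (-1.1), and Adipor1 was higher than in Sham-WM (0.28). Of 8 other genes of the alternative complement pathway, in which factor D acts, 3 rose and none fell in VSG relative to Sham-WM. Cfp, which encodes properdin, the stabilizer of the pathway's convertase, was at 52.6 ± 22.9 CPM in VSG, 11 ± 2.21 in Sham-WM and 15.1 ± 9.01 in Sham-Ad lib (2.25 and 1.8 on the log2 scale). Cd59a (0.48), an inhibitor of complement, was another. Of 6 tested carbonic anhydrase genes other than Car3, none passed between VSG and Sham-WM in edgeR, 3 had an unadjusted p under 0.05 and DESeq2 called 1, beside 40.4% and 31.3% of all genes.

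The median log2 fold change between VSG and Sham-WM, 0.03 over all tested genes, was -0.42 for the PPAR-responsive genes, -0.1 for the lipid droplet genes, -0.08 for triglyceride synthesis, 0.18 for uptake, 0.24 for adiponectin signalling, 0.41 for the complement genes and 0.1 for the carbonic anhydrases. It was -0.05 for the 9 members.

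**Figure D5:**
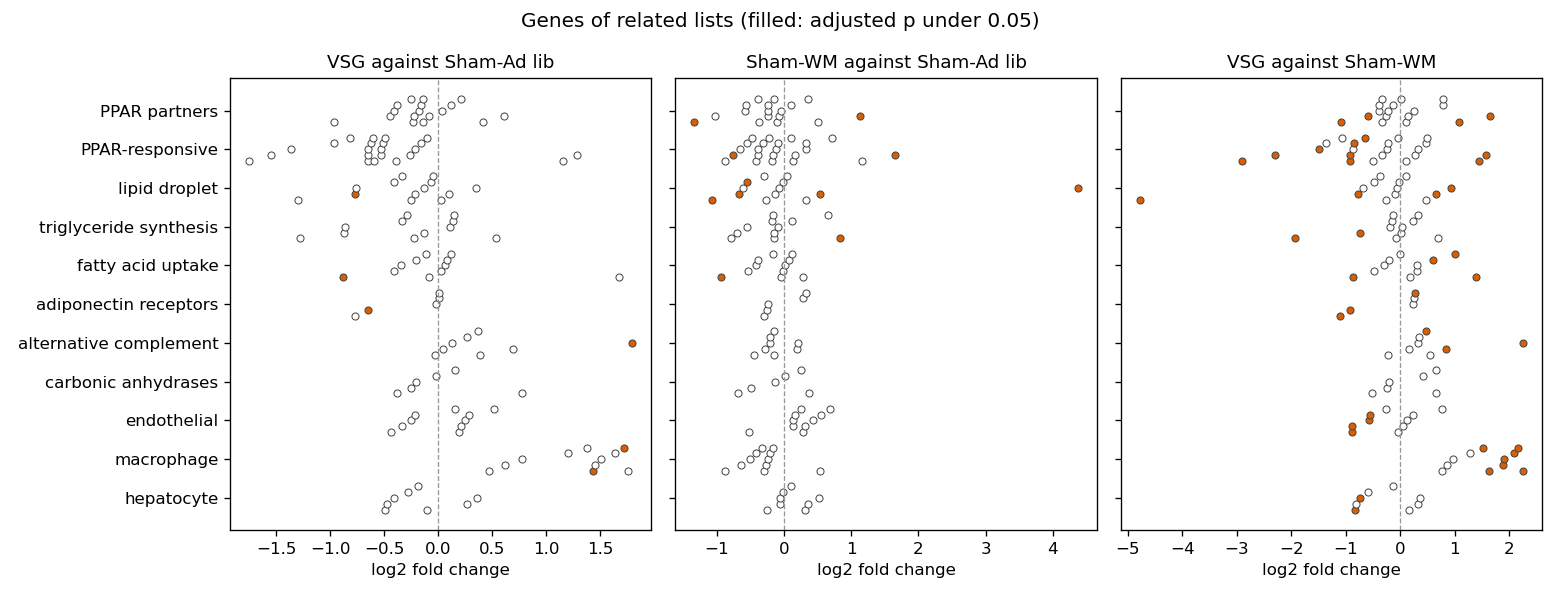
Log2 fold changes of the tested genes of 11 lists in each of the 3 comparisons, 1 point per gene, filled where the adjusted p was under 0.05 (horizontal axes differ in range). The macrophage genes all lie above 0 in VSG against Sham-WM, with 7 of 11 filled, and the PPAR-responsive genes have 7 filled points below 0 and 2 above.

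Markers of other liver cells moved with VSG, the group in which Car3 was low. Of 11 macrophage markers, 7 were higher and none lower in VSG than in Sham-WM, among them Adgre1 (2.25), Cd5l (2.17) and Csf1r (2.09), and Vsig4 (1.72) and Clec4f (1.44) were also higher than in Sham-Ad lib. Their summed CPM was 493 to 1159 in VSG, 160 to 250 in Sham-WM and 175 to 482 in Sham-Ad lib. Of 10 endothelial markers, 4 were lower in VSG than in Sham-WM (Kdr -0.89, Tek -0.89 and Eng -0.57 among them), while Lyve1 (0.77), Cdh5 (0.23), Pecam1 (0.12) and Stab2 (0.05) had estimates above 0 that did not pass, with sums of 149 to 260, 187 to 288 and 170 to 224 CPM in VSG, Sham-WM and Sham-Ad lib. Of 8 hepatocyte markers, Cps1 (-0.83) and Alb (-0.73) were lower in VSG than in Sham-WM, while Asgr1 (0.37), Serpina1a (0.33) and Apoa1 (0.16) had estimates above 0 that did not pass. The list, most of it Alb, summed to 79357 to 82794 CPM in 3 VSG mice and 122054 in the other (18F), to 123249 to 153596 in Sham-WM and to 105609 to 123503 in Sham-Ad lib. The median log2 fold change of these lists between VSG and Sham-WM was 1.63 for macrophage, -0.16 for endothelial and -0.36 for hepatocyte markers. The part of these shifts in the values of Car3, Fabp4 and the other members was not tested.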

How the data were processed

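Liver RNA-seq counts of 12 mice were used. The authors aligned paired reads from directional poly(A) libraries to mm10 with TopHat2 2.1.1 and counted those on genes with featureCounts. The deposited counts are whole numbers per Ensembl gene, not normalized. The annotation release and the strand setting of the counting are not given in the sources used here. Symbols and positions came from GENCODE M21 for 45229 of 46078 genes. Libraries were grouped by the animal number shared by the column name and the sample's title. A second label field pairs titles and columns in another order, and grouping by it was an alternative. The labels give no batch. The study's methods report that variation due to batch was removed with RUVSeq with 2 factors, and which libraries formed a batch is not given in the sources used here, so RUVr and RUVs factors, written out from their definitions, stand in for it as alternatives.

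EdgeR's filterByExpr was set to the CPM equivalent of 10 counts in at least 4 libraries, the size of a group, and to 15 counts in all. It passed 13054 genes. Group means of all 12 libraries were fitted with TMM factors in edgeR 4.0.16 (R 4.3.3) and compared by its quasi-likelihood test in 3 contrasts, with p-values adjusted by the Benjamini-Hochberg method over all genes tested and called at 0.05. Intervals are 95% intervals of the fit. A prior count of 2 entered log2 CPM. A count of 0 was taken to allow up to 3 counts, and this covers counting error only. For Adipoq, an exact permutation test was planned. Genes of like level lay within 0.5 log2 CPM of a member. Sequences came from RefSeq, GRCm38.p6.

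The members and all lists were chosen with earlier results of these data known. Named were all members, all fat cell markers, the 3 genes of each other list with the largest change among those called between VSG and Sham-WM, at most 2 per contrast with Sham-Ad lib, and the 3 closest patterns for Pparg and the members called. Some genes that this rule names are not reported here, and endothelial and hepatocyte markers with estimates above 0 were named after their values were seen. Alternatives were DESeq2 1.42.0, its size factors in edgeR, other filters on low counts, fits of only the groups compared, 2 RUVr or RUVs factors, and leaving out each library. The methods were also run on simulated data, for VSG against Sham-WM only. Means and spread were taken from these data and no batch was built in. The outcome is not reported here.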

Additional observations from a re-analysis of the deposited data

Results flagged for a closer look

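Among the 27 sets of 4 values, 1 per gene and group without Adipoq, which never passed 3 reads in a library, in which a single far value was looked for, 2 held one, where chance gives about 1 in 20. Fabp4 in VSG mouse 8F was at 6.12 CPM, far below the other 3 VSG mice at 12 to 13 CPM (gap over range 0.848, past Dixon's critical value). Mogat1 in VSG mouse 11F was at 1.13 CPM, above the other 3 VSG mice at 0.512 to 0.597 CPM (0.862). The reason was not tested in either case.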

How the results depend on the processing

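In VSG against Sham-Ad lib, the 1 member called became 5 with DESeq2, 3 with no filter on low counts, 6 with 2 RUVr factors, and 0 with at least 10 counts in every library (where Cfd was not tested), with 2 RUVs factors, with only the 2 groups compared and with groups by the second label field. It was 0 to 3 when each library was left out. Over all genes, 98 were called in the main fit, 1202 with DESeq2, 628 with no filter and 3016 with RUVr factors. The number was 6 with RUVs factors, and 0 with at least 10 counts, only the 2 groups or the second label field. Without single libraries, it was 0 to 1089 genes. Cfd's part in the counts of members is a description of the choice. In Sham-WM against Sham-Ad lib, 3 became 0 with groups by the second label field and 1 to 3 without single libraries, with 1 (Cfd) without 4F or 15F. In VSG against Sham-WM, 1 became 2 with DESeq2, 0 with 2 RUVs factors and with the second label field, and 1 to 2 without single libraries. Cfd was added without 2F or 18F, Plin4 without 16F and Fabp4 without 8F. Signs reversed only for small uncalled values. For Cd36 against Sham-Ad lib, VSG became 0.01 with RUVs factors and 0.16 without 6F, and Sham-WM 0.23 without 6F. For VSG against Sham-WM, Cd36 became 0.17 with RUVs factors, 0 without 2F, 0.04 without 16F and 0.01 without 11F, Cidec became 0.21 without 2F, 0.02 without 1F and 0.19 without 18F, and Pparg became 0.03 without 16F. Each of these values is a log2 fold change, and no cause was tested. Over all fits without 1 library, Cd36 ranged from -0.41 (VSG) and -0.34 (Sham-WM) against Sham-Ad lib and from -0.15 between VSG and Sham-WM up to these values, Cidec from -0.27 and Pparg from -0.14. Cidec and Plin4 in Sham-WM each passed in 8 of 12 fits without 1 library. The RUV alternatives use as many factors as the study's step against batch (2), whose variant is not given in the sources used here, and with RUVs factors Car3 was not called. Few reads limit Cfd in treated mice, Cidea and Adipoq.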
